A study of Mus musculus with 10 samples.

Results

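The brain patterning transcription factors are 9 genes that divide the front end of the neural tube into forebrain, midbrain and hindbrain, namely *Six3*, *Lhx2*, *Emx2*, *Pax6*, *Dlx2*, *Otx2*, *En1*, *En2* and *Gbx2*. The genes were listed by symbol, and each was read from the probe set that the array annotation assigns to it alone. All 9 were found among 19937 genes measured. The samples were *Sox10*-H2BVenus+ sacral neural crest progenitors (NCPs), sorted at E13 from the lower urogenital tract of transgenic fetuses, on 3 arrays, and total embryo RNA on 7 arrays. In these fetuses, *Sox10* regulatory sequences drive a fluorescent histone that can persist for a while in young neurons, each NCP sample pooled tissue of several fetuses, and the labels give neither the genotype nor the stage of the total embryo RNA. The total embryo arrays carry 2 label numbers, on 3 and 4 arrays, and the NCP arrays carry 3. Nothing in the labels shows that arrays with the same number came from separate embryos, so the p-values below may measure technical spread in total embryo.

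Brain patterning transcription factors bind DNA mostly through a homeodomain, and pairs of them hold each other in check to set sharp borders. *Otx2* and *Gbx2* meet at the border of midbrain and hindbrain, the isthmus, where the engrailed genes *En1* and *En2* are expressed around it. *Six3*, *Lhx2*, *Emx2*, *Pax6* and *Dlx2* act farther forward, in the eye field, the cortex and the ventral forebrain. The neural crest that colonizes the lower urinary tract arises from the sacral neural tube, far behind these territories, while total embryo RNA includes head and brain. The question was whether these genes differed between NCPs and total embryo, and by more or less than other genes of similar level.

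Values are log2 intensities normalized by robust Multi-Array Average (RMA), and each log2 fold change is NCP minus total embryo. The NCP arrays had a narrower range than the total embryo arrays, with a standard deviation (SD) over all probe sets of 0.968 to 1.13 in NCPs, against 1.78 to 1.91 in total embryo. Receptor genes of the nose (1194 of the Olfr, Vmn1r and Vmn2r families) served as a floor, since sorted crest cells should not use them. The gap between the median of 8 housekeeping genes and that floor was 3.48 for NCP array 1, 1.32 for array 2 and 4.43 for array 3, whereas in total embryo it ran from 6.78 to 7.26. NCP array 2 stood apart by this measure, and results without it are given for some of the genes. *Sox10* averaged 7.56 ± 0.40 in NCPs (SD, n = 3) and 6.56 ± 0.09 in total embryo (n = 7). Of the 5 NCP markers measured 2 were called higher and 2 lower, where 39.6% and 27.5% of all probe sets were. The markers called lower were *Ednrb* (-1.35) and *Erbb3*, a receptor of neural crest glia, which averaged 5.40 in NCPs and 6.60 in total embryo. After subtracting each array's smooth trend on the total embryo mean (level adjustment), *Erbb3* stayed lower (-0.95, limma adjusted p = 0.0074). *Ednrb* was then not called (0.30, limma adjusted p = 0.34). The labels end in digits that were read here as dates, though the labels do not say so. Read so, all NCP arrays share a date with total embryo array 1 alone. Date and group can then be told apart only through that array.

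Of the 9 genes, 5 were higher in NCPs in the deposited scaling (*Six3*, *Emx2*, *Dlx2*, *En2* and *Gbx2*, whose estimates all turned negative with arrays centred on receptor genes, past the test for all but *En2*, while that of *Emx2* was also slightly negative and not called after cyclic loess and level adjustment), 1 was lower (*Lhx2*), and *Pax6*, *Otx2* and *En1* did not pass the test. In the same fit, 39.6% of all 28192 probe sets were called higher and 27.5% lower (limma, Benjamini-Hochberg adjusted p under 0.05). The median change of the 9 genes was 0.56, against 0.23 over all probe sets. Without NCP array 2 the same 5 genes were called higher and *Lhx2* lower. In 3 genes every NCP array lay above every total embryo array, and in 1 gene every NCP array lay below, where 31.8% and 21.5% of all probe sets did so. When arrays with the same label number were averaged, none of the 9 passed, where 20.4% of probe sets were called higher and 14.8% lower (limma, Benjamini-Hochberg). At an unadjusted p under 0.05 in that fit, 0 of the 9 passed, where 47.1% of all probe sets did. In these bulk samples, fewer cells of a type and less RNA per cell cannot be told apart.

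**Figure D1:**
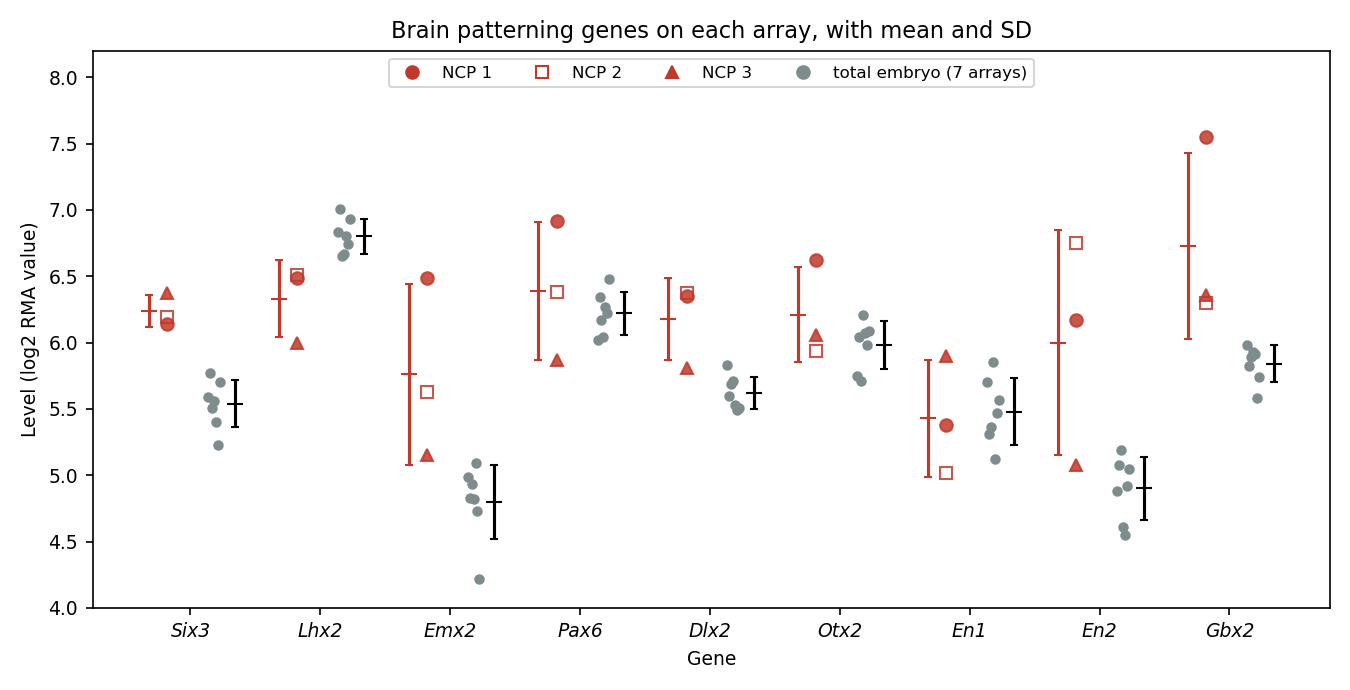
Log2 RMA value (y axis) of each brain patterning gene on the 3 NCP arrays and the 7 total embryo arrays, with points for arrays and bars for group means and SDs. In the deposited scaling, *Six3*, *Emx2* and *Gbx2* had all NCP arrays above all total embryo arrays, *Lhx2* had all NCP arrays below, and the groups overlapped in the other 5 genes.

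Among the forebrain and eye genes, *Six3* (probe set 10447288, chromosome 17), a repressor of Wnt signals in the anterior neural plate, had log2 values of 6.14, 6.19 and 6.37 on NCP arrays 1, 2 and 3, against 5.23, 5.56 and 5.77 (lowest, median, highest) in total embryo. Every NCP array lay above the total embryo arrays, and the NCP values lay close together. The log2 fold change was 0.70 (SE 0.16, 95% interval 0.35 to 1.05, limma adjusted p = 0.0019). It kept its call when any one array was left out (limma adjusted p = 0.0023 to 0.00643) and had the smallest SD of the 9 genes in NCPs (0.12).

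*Lhx2* (probe set 10471833, chromosome 2), a LIM-homeodomain factor needed for cortex and eye, was the gene that fell. Its log2 values were 6.49, 6.51 and 6.0 on NCP arrays 1, 2 and 3, against 6.65, 6.80 and 7.01 (lowest, median, highest) in total embryo, so the groups did not overlap. *Lhx2* changed by -0.47 (SE 0.17, 95% interval -0.83 to -0.11, limma adjusted p = 0.0229). NCP array 3 was the lowest, and without it the change was -0.31 and the call was lost (limma adjusted p = 0.0992).

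*Emx2* (probe set 10464391, chromosome 19), which patterns the dorsal telencephalon and is also required for the urogenital tract, had log2 values of 6.49, 5.63 and 5.15 on NCP arrays 1, 2 and 3, against 4.22, 4.83 and 5.09 (lowest, median, highest) in total embryo. The NCP arrays were all above, but array 3 exceeded the highest total embryo array only slightly. *Emx2* changed by 0.96 (SE 0.27, 95% interval 0.38 to 1.53, limma adjusted p = 0.00647). Without NCP array 1 it was 0.59 (limma adjusted p = 0.0399).

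*Dlx2* (probe set 10483626, chromosome 2), a factor of ventral forebrain interneurons and of the branchial arches, had log2 values of 6.35, 6.37 and 5.81 on NCP arrays 1, 2 and 3, against 5.49, 5.60 and 5.83 (lowest, median, highest) in total embryo. NCP array 3 fell within the total embryo range, and the other two lay above it. *Dlx2* changed by 0.56 (SE 0.17, 95% interval 0.19 to 0.92, limma adjusted p = 0.0107).

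*Pax6* (probe set 10474312, chromosome 2), the paired-domain factor of eye, forebrain and spinal cord, had log2 values of 6.92, 6.38 and 5.87 on NCP arrays 1, 2 and 3, against 6.02, 6.22 and 6.48 (lowest, median, highest) in total embryo. The NCP arrays lay above, within and below the total embryo range. The log2 fold change of 0.17 had a 95% interval of -0.28 to 0.62 and did not pass the test (limma adjusted p = 0.489). The estimate was -0.10 without NCP array 1 and 0.43 without array 3, and neither passed (limma adjusted p = 0.667 and 0.0628).

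At the border of midbrain and hindbrain, *Otx2* (probe set 10419356, chromosome 14), which specifies forebrain and midbrain, had log2 values of 6.62, 5.94 and 6.06 on NCP arrays 1, 2 and 3, against 5.71, 6.04 and 6.21 (lowest, median, highest) in total embryo. Only NCP array 1 left the total embryo range. The log2 fold change of 0.23 had a 95% interval of -0.18 to 0.63 and did not pass the test (limma adjusted p = 0.297).

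*Gbx2* (probe set 10356484, chromosome 1), which counters *Otx2* from the hindbrain side, had log2 values of 7.55, 6.30 and 6.36 on NCP arrays 1, 2 and 3, against 5.58, 5.89 and 5.98 (lowest, median, highest) in total embryo. All NCP arrays were above, with array 1 far above the other two. *Gbx2* changed by 0.90 (SE 0.24, 95% interval 0.37 to 1.42, limma adjusted p = 0.00545). The change was 0.49 without NCP array 1 (limma adjusted p = 0.0159) and 1.12 without NCP array 2 (limma adjusted p = 0.00222).

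*En1* (probe set 10349345, chromosome 1), an engrailed factor of the midbrain and hindbrain that is also expressed in spinal interneurons and ventral limb ectoderm, had log2 values of 5.38, 5.02 and 5.90 on NCP arrays 1, 2 and 3, against 5.12, 5.47 and 5.85 (lowest, median, highest) in total embryo. The NCP arrays lay within, below and above the total embryo range. The log2 fold change of -0.05 had a 95% interval of -0.52 to 0.41 and did not pass the test (limma adjusted p = 0.842). The estimate was 0.16 without NCP array 2 and -0.29 without array 3, and neither passed (limma adjusted p = 0.541 and 0.24).

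*En2* (probe set 10520368, chromosome 5), the second engrailed gene, had log2 values of 6.17, 6.75 and 5.08 on NCP arrays 1, 2 and 3, against 4.55, 4.92 and 5.19 (lowest, median, highest) in total embryo. NCP arrays 1 and 2 lay above the total embryo range and array 3 within it. *En2* changed by 1.1 (SE 0.29, 95% interval 0.47 to 1.73, limma adjusted p = 0.0048). Without NCP array 2, the array with the narrowest range, it was 0.72 (limma adjusted p = 0.0308). Across the 10 arrays the engrailed genes were the least alike of all pairs, with a root mean square (RMS) difference of 0.833 after each gene was centred on its mean, and *Pax6* and *Otx2* were the most alike (0.217).

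**Figure D2:**
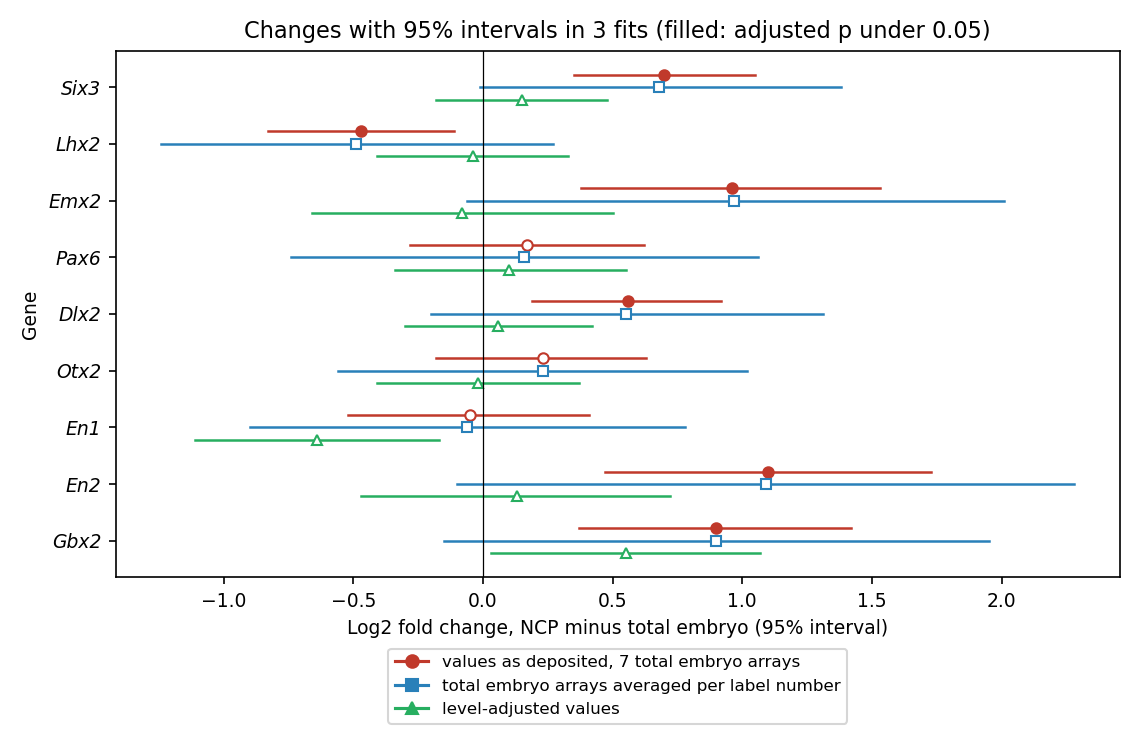
Log2 fold change (NCP minus total embryo, with 95% interval from limma) of each brain patterning gene, as deposited, after level adjustment and with arrays averaged per label number. The intervals of *Six3*, *Emx2*, *Dlx2*, *En2* and *Gbx2* lay above 0 and that of *Lhx2* below 0 for the values as deposited, and after level adjustment 7 of the 9 estimates lay between -0.08 and 0.15.

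The spread between arrays was wider in NCPs for 8 of the 9 genes, all but *Six3*, as it was for 82.3% of all probe sets. The median SD of the 9 genes was 0.44 in NCPs and 0.18 in total embryo, against 0.48 and 0.216 over all probe sets. NCP array 3 held the lowest NCP value of 5 genes (*Lhx2*, *Emx2*, *Pax6*, *Dlx2* and *En2*), while array 1 held the highest of 4 (*Emx2*, *Pax6*, *Otx2* and *Gbx2*). The median level of the 9 genes was 6.49, 6.30 and 5.90 on NCP arrays 1, 2 and 3, against 5.49 to 5.85 on the total embryo arrays. Within total embryo, the means of the label numbers differed by -0.21 (*Emx2*) to 0.26 (*Six3*).

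Because low probe sets were generally higher and high probe sets generally lower on the NCP arrays, each change was set against the 500 genes nearest in mean total embryo level, as a description with no test. For 8 of the 9 genes the change lay between the 5th and the 95th percentile of these neighbours, and for 7 it lay between the 25th and the 75th. The difference from the neighbours' median ran from -0.65 to 0.59, with a median of 0.07. The increases of *Emx2* and *En2*, the largest of the called genes, were close to the neighbour medians of 1.02 and 0.98 and stood at percentiles 43.2 and 61.4. These places differed between single arrays. For NCP arrays 1, 2 and 3 *Emx2* stood at 89.0, 34.0 and 14.6, and *En2* at 69.4, 91.0 and 9.4. Without NCP array 2 they stood at 52.6 (*Emx2*) and 30.4 (*En2*). Of the neighbours of *Emx2*, 88.6% were called higher, and of those of *En2*, 85.6%. *Six3* and *Dlx2* stood at percentiles 64.8 and 56.8 of their neighbours, whose medians were 0.56 and 0.49. The decrease of *Lhx2* was close to the typical change at its level, with a neighbour median of -0.44 and a percentile of 47.6. *Pax6* (65.2) and *Otx2* (52.2) were also near the middle. The total embryo mean enters both the matching and the change, so the label numbers were also split between these steps. Depending on which label number served for matching, *Six3* stood at 47.6 or 79.4, *Lhx2* at 29.6 or 65.8 and *Emx2* at 66.4 or 27.6.

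**Figure D3:**
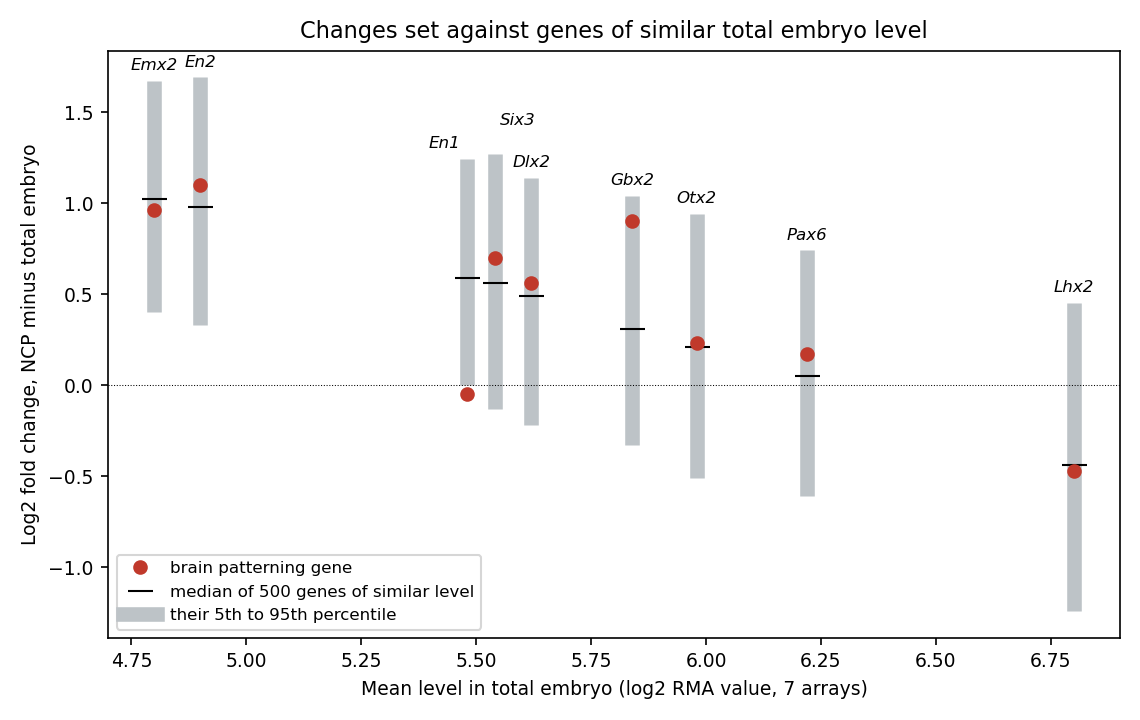
Log2 fold change (y axis, NCP minus total embryo) of each brain patterning gene against its mean log2 RMA value in total embryo (x axis), with the median and the 5th to 95th percentile of the 500 genes of nearest level. The neighbour medians ran between 1.02 at the level of *Emx2* and -0.44 at the level of *Lhx2*, *En1* lay just below its band and *Gbx2* near the top of its band.

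*En1* and *Gbx2* stood farthest from genes of similar level, on opposite sides. The neighbours of *En1* had a median change of 0.59, against -0.05 for *En1*, which stood at percentile 3.8. Without NCP array 2 *En1* stood at percentile 15.0, and with 1000 neighbours at 5.3, so its place below the 5th percentile depended on the setting. Taken array by array, *En1* stood at percentiles 9.4, 2.4 and 38.2 for NCP arrays 1, 2 and 3, so array 3 was not low. *Gbx2* changed by 0.90 where its neighbours had a median of 0.31, at percentile 90.8. Its percentiles were 98.4, 62.6 and 64.6 for NCP arrays 1, 2 and 3. It stood at 69.6 without array 1 and at 95.2 without array 2.

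After level adjustment, which subtracts from each array its smooth trend on the total embryo mean, none of the 9 genes passed the test, where 10.3% of probe sets were called higher and 8.29% lower (limma, Benjamini-Hochberg). At an unadjusted p under 0.05, 2 genes passed, where 33.3% of all probe sets did. These were *En1*, with a level-adjusted change of -0.64 (95% interval -1.11 to -0.17, limma adjusted p = 0.057), and *Gbx2*, with 0.55 (95% interval 0.03 to 1.07, limma adjusted p = 0.128). The level-adjusted changes of the other 7 ran from -0.08 (*Emx2*) to 0.15 (*Six3*). Both values moved with single arrays, though *En1* stayed negative whichever NCP array was left out. *En1* passed without NCP array 3 (-0.89, limma adjusted p = 0.0101). Its level-adjusted change was -0.61 without array 1 and -0.42 without array 2, and neither passed (limma adjusted p = 0.1 and 0.17). *Gbx2* passed without NCP array 2 (0.77, limma adjusted p = 0.0428), but its level-adjusted change was 0.15 without array 1 (limma adjusted p = 0.505).

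Set against the receptor genes on the same array, the 9 genes stood lower in NCPs than in total embryo. Averaged over arrays, their percentile among the 1194 receptor genes was 46.9 (*En1*) to 89.4 (*Gbx2*) in NCPs and 83.5 (*Emx2*) to 99.9 (*Lhx2*) in total embryo. None of the 9 reached the 95th percentile in NCPs, against 7 of the 9 in total embryo, all but *Emx2* and *En2*. That percentile lay at 6.65 to 6.88 on the NCP arrays, above the medians of all probe sets (6.14 to 6.15). In total embryo it lay at 5.31 to 5.5, below those medians (6.0 to 6.08). The typical probe set thus also lay under it in NCPs and over it in total embryo. On single NCP arrays, *Gbx2* (99.2) and *Pax6* (96.5) passed it on array 1, and no other value did. A level above this floor on the average of the NCP arrays was therefore not shown for any of them, also not for those called higher. With the arrays centred on the receptor genes, 8 of the 9 were lower in NCPs and none higher, where 77.9% of all probe sets were called lower and 4.77% higher and their median moved to -1.46. The exception was *En2* (-0.59, limma adjusted p = 0.0598).

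The choice of controls and of scaling decided how many of the 9 genes were called. With the label number as a random block, 3 were higher (*Six3*, *En2* and *Gbx2*) and none lower, where 28.4% of probe sets were called higher and 20.2% lower (limma, Benjamini-Hochberg). Against the total embryo arrays of the same label series, 1 was higher (*Emx2*), where 26.8% were called higher and 19.5% lower. Against those of the other label series, 5 were higher and none lower, where 34.8% were called higher and 24.1% lower. With array weights 2 were higher (*En2* and *Gbx2*) and none lower, where 29.5% were called higher and 20.6% lower. At an adjusted p threshold of 0.01, 4 were higher (all of the 5 but *Dlx2*) and none lower, where 32.4% were called higher and 22.3% lower. Against the single array of the same date none was called (0 also at an unadjusted p under 0.05), where 1.29% were called higher and 2.45% lower. After cyclic loess *Gbx2* was higher (0.72) and *En1* lower (-0.77), where 16.9% were called higher and 16.0% lower. After a further quantile normalization *Six3* and *Gbx2* were higher and *En1* lower (-0.84), where 22.6% were called higher and 20.0% lower. The median change of the 9 genes and that of all probe sets were 0.56 and 0.23 as deposited, 0.33 and 0.08 after quantile normalization, 0.10 and -0.01 after cyclic loess, 0.06 and -0.01 after level adjustment, and -1.13 and -1.46 with arrays centred on receptor genes. The median of the 9 genes thus lay above that of all probe sets under each of these scalings, though all probe sets are not matched to them by level. With level adjustment it was -0.10 without NCP array 1, 0.02 without array 2 and 0.19 without array 3, against -0.01 for all probe sets each time.

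The promoters of *Gbx2* and *En1* are shown because these genes stood farthest, on opposite sides, from genes of similar level. They are the 250 bases before the gene start from RefSeq (GRCm38.p6), 5′ to 3′ on the gene's strand, with each CG in capitals.
Gbx2, chr1:89931177-89931426, minus strand: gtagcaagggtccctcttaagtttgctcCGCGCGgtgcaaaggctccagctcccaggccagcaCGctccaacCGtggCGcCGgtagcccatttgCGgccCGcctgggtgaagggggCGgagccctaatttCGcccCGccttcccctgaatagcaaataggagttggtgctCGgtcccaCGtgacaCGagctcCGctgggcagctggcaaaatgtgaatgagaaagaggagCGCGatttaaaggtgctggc
En1, chr1:120602237-120602486, plus strand: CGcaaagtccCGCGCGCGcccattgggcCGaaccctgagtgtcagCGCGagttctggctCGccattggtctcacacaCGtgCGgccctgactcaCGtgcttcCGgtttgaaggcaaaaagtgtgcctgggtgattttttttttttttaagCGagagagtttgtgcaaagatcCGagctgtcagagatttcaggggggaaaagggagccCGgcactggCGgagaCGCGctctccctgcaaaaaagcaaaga
The *Gbx2* window holds 18 CG and that of *En1* 19, and 21.6% and 19.5% of all 27018 promoters of this length hold at least as many. Of the 9 genes, 8 had such a window (*En2* is named only), with 6 to 25 CG and a median of 18.5, against a median of 6 over all promoters. The homeodomain core TAATTA (the same on both strands) was found in 1 of the 8, *Otx2*, and in 4.91% of all promoters. CCAAT, searched on both strands, was found in 5 of the 8 and in 34.5% of all promoters. Both *Gbx2* and *En1* were thus richer in CG than the median promoter, and their level-adjusted changes differed in sign.

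Related gene lists were counted in the same fit, in the deposited scaling, where 39.6% of all probe sets were called higher and 27.5% lower. Counts after level adjustment are also given for each list, where 10.3% of all probe sets were called higher and 8.29% lower. With arrays centred on receptor genes no gene of these lists was called higher. With arrays averaged per label number, which called 20.4% of all probe sets higher and 14.8% lower, the genes called higher were 0 of 8 paralogs, 5 of 19 other forebrain factors, 4 of 11 midbrain and isthmus genes, 1 of 9 hindbrain genes, 2 of 16 posterior Hox genes and 0 of 7 autonomic factors, and 1 hindbrain gene was called lower. Of 8 paralogs measured, 4 were called higher and none lower, with a median change of 0.43. *Six6*, the relative of *Six3* in eye and pituitary, was 6.14 ± 0.58 in NCPs and 5.07 ± 0.08 in total embryo (SD, n = 3 and 7), a change of 1.06. *Dlx1*, the neighbour of *Dlx2* on its chromosome, was 6.50 ± 0.31 in NCPs and 5.52 ± 0.19 in total embryo, a change of 0.99. After level adjustment 1 paralog was called higher and 1 lower. These were *Emx1* (1.39, limma adjusted p = 0.000353) and *Otx1* (-0.73, limma adjusted p = 0.00625), which are named because of these values.

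Of 19 other forebrain patterning factors measured, 13 were called higher and none lower, with a median change of 0.83. *Hesx1*, a repressor of the anterior forebrain and pituitary, averaged 6.58 ± 1.18 in NCPs and 4.24 ± 0.16 in total embryo (SD, n = 3 and 7), a change of 2.35. *Lhx5*, a LIM-homeodomain factor of the forebrain, averaged 6.39 ± 0.49 in NCPs and 4.47 ± 0.25 in total embryo, a change of 1.92. After level adjustment 3 of the 19 were called higher and 1 lower, with neither *Hesx1* (0.95) nor *Lhx5* (0.67) among them.

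Of 11 midbrain and isthmus genes, 6 were called higher and none lower, with a median change of 0.66. *Mab21l1* (eye and midbrain) changed by 1.80 and *Wnt1*, a signal of the isthmus and dorsal neural tube, by 1.60. After level adjustment 3 were called higher, among them *Mab21l1* (1.45), and *Wnt1* had a value of -0.08. Of 9 hindbrain segment genes, 5 were called higher and 2 lower. *Hoxb1* (0.97) and *Hoxb2* (0.92), which give identity to hindbrain segments, had the largest increases. *Egr2* (-1.85), a zinc finger factor of the hindbrain and of myelinating glia, and *Meis2* (-1.18), a cofactor of Hox proteins, were the genes called lower. After level adjustment 1 hindbrain gene was called higher, *Hoxb1* (0.96), and none lower, with *Egr2* at -0.55 (limma adjusted p = 0.15) and *Meis2* at 0.13 (limma adjusted p = 0.743).

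Genes of the trunk end of the axis and of the autonomic lineage were counted in the same way. Of 16 posterior Hox genes, 12 were called higher and none lower, with a median change of 0.81. After level adjustment 6 were called higher, where 10.3% of all probe sets were. *Hoxd12* averaged 6.98 ± 0.64 in NCPs and 4.96 ± 0.32 in total embryo (SD, n = 3 and 7), a change of 2.02. *Hoxd10* averaged 8.58 ± 1.77 in NCPs and 6.72 ± 0.33 in total embryo, a change of 1.86. Of 7 autonomic neurogenesis factors, 4 were called higher, with a median change of 0.55, and 3 after level adjustment, among them *Isl1* (1.13), a LIM-homeodomain factor of motor and sympathetic neurons. *Phox2a*, which specifies autonomic neurons, changed by 1.58, and by 0.54 after level adjustment. The difference of the median from genes of similar level was 0.41 for posterior Hox genes and 0.56 for autonomic factors, against 0.07 for the 9 brain patterning genes. It was 0.17 for the paralogs, 0.29 for the other forebrain factors, 0.29 for the midbrain and isthmus genes and 0.07 for the hindbrain genes. The low value was therefore not shared by all lists of brain genes. These differences between lists were not tested.

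**Figure D4:**
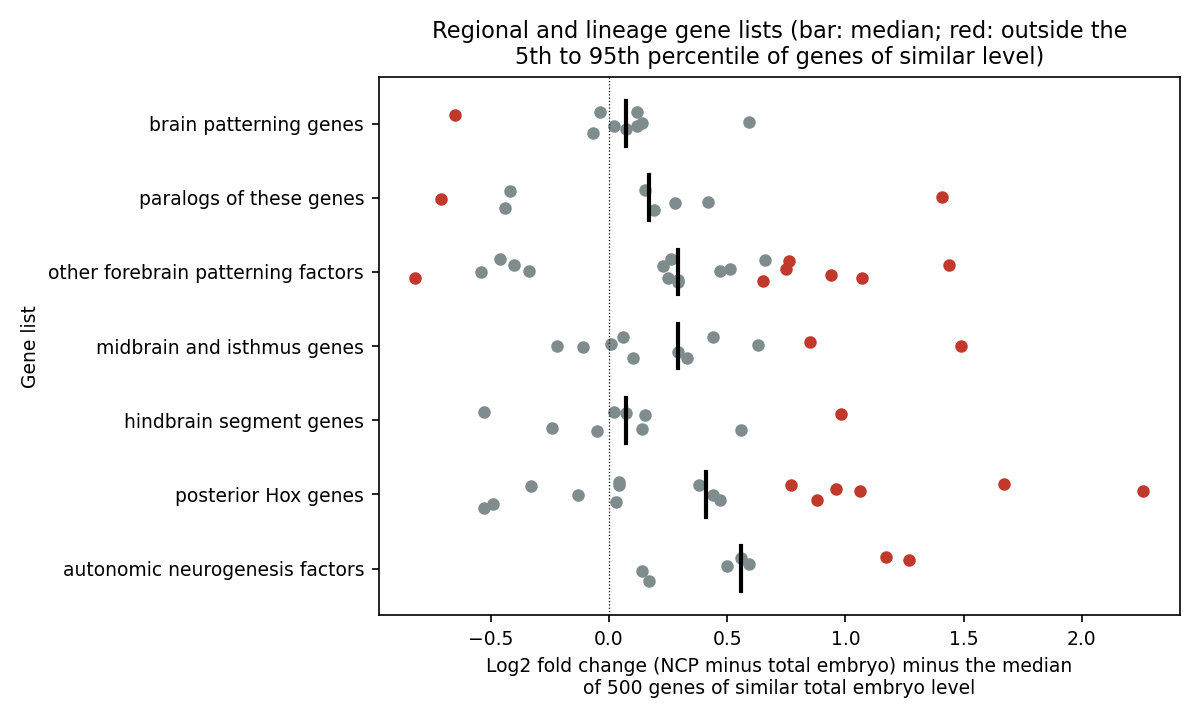
Log2 fold change (NCP minus total embryo) minus the median of the 500 genes of nearest total embryo level (x axis), for each gene of the brain patterning list and 6 related lists in rows, with a bar at each list's median and red points outside the 5th to 95th percentile of those neighbours. The medians ran from 0.07 for the brain patterning and hindbrain genes to 0.56 for the autonomic factors, and *En1* was the red point among the brain patterning genes.

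Markers of other tissues were read on the same arrays. Of 8 central nervous system markers measured, 4 were called higher in NCPs and 1 lower (39.6% and 27.5% of all probe sets), and their mean level was 6.16 to 6.43 on the NCP arrays, against 6.08 to 6.18 on the total embryo arrays. This balance changed with the processing. It was 1 higher and 2 lower after level adjustment, where 10.3% of all probe sets were called higher and 8.29% lower. It was 2 and 2 after cyclic loess (16.9% and 16.0% of all probe sets). With arrays centred on receptor genes it was 0 and 8 (4.77% and 77.9%). With arrays averaged per label number it was 0 and 0 (20.4% and 14.8%). *Tbr1*, a factor of cortical neurons, averaged 7.37 in NCPs and 6.54 in total embryo and was called higher. *Slc1a3*, a glial glutamate transporter, averaged 6.75 in NCPs and 7.12 in total embryo and was not called (limma adjusted p = 0.122). The marker called lower was *Neurod6* (-0.95, limma adjusted p = 0.0144), also after level adjustment (-0.98, limma adjusted p = 0.0417). *Slc17a7* was not called in the deposited scaling (0.08) but was lower after level adjustment (-0.63, limma adjusted p = 0.00962). Of 6 markers of limb and skin ectoderm, a tissue where *En1* is also expressed, 1 was called higher and 4 lower, with a mean level of 6.24 to 6.65 in NCPs, against 7.99 to 8.57 in total embryo. Of 5 eye and lens markers, 2 were called higher and 3 lower, at 5.98 to 6.39 in NCPs, against 6.72 to 7.31 in total embryo. The 2 called higher, *Rax* and *Six6*, also belong to the lists of other forebrain factors and of paralogs. After level adjustment the counts higher and lower were 0 and 1 for eye and lens and 0 and 3 for limb and skin ectoderm. That fit called 10.3% of all probe sets higher and 8.29% lower. The part of these tissues in the changes of the brain patterning genes was not tested.

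By likeness of pattern over the 10 arrays, the genes nearest to each brain patterning gene had RMS differences of 0.08 to 0.19 after centring. For *Six3* these were *Slc24a1* (0.08) and *Gcsam* (0.0851), and for *Lhx2* *Tbc1d12* (0.101) and *Ift88* (0.103). For *Gbx2* they were *Dnaaf3* (0.0946) and *Usf1* (0.112), and for *En1* *Zfp469* (0.161) and *Lrrc7* (0.166). For *Emx2* they were *Cyp27b1* (0.171) and *Msx3* (0.19), a homeodomain factor of the dorsal neural tube. The points share arrays and normalization.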

How the data were processed

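Affymetrix mouse Gene 1.0 ST arrays were used for 3 NCP and 7 total embryo samples. The deposited values are on a log2 scale, which the authors obtained by RMA, with Affymetrix Expression Console 1.1 named in the submitters' processing notes. The values carry no detection p, and the number of arrays limits precision. The labels name a GeneChip labelling kit, where the methods name NuGEN amplification. Values were used as deposited and groups taken from the labels. Replicates were numbered in accession order and pair no samples.

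Of 34760 probe sets, 6568 controls were left out and 28192 tested with limma 3.58.1 (R 4.3.3) and Benjamini-Hochberg adjustment over all, at a threshold of 0.05, as a linear model of group. Of these, 21640 carry 1 gene symbol, 1321 several and 5231 none, and 21553 symbols matched RefSeq. A gene's probe set is the one with the highest mean over all 10 arrays. Level adjustment subtracts a lowess trend (span 0.3) per array. Alternatives changed controls, blocks, scaling, prior, weights, filter, threshold and test, and left out each array. The fits were tested on simulated data.

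The genes, lists and tests were chosen with earlier results of these data known. Named genes are the 9 members, up to 2 largest increases and 2 largest decreases past the threshold per list, the 2 genes most alike per member, and the highest marker of each list per group, of which a selection is given.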

Additional observations from a re-analysis of the deposited data

Results flagged for a closer look

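*Emx2* on total embryo array 7 was far from the other total embryo arrays, at 4.22 where the next value was 4.73 (gap over range 0.583, above the Dixon limit of 0.568 for 7 arrays). It was 1 of 9 groups looked at, and chance gives about 1 in 20. Without this array the *Emx2* change was 0.86 (limma adjusted p = 0.0112).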

How the results depend on the processing

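No paired analysis was possible because the labels give the groups no shared replicate numbers. Leaving out each array in turn kept 5 of the 9 genes called higher, and the number called lower ran from 0 (without NCP array 3) to 1. In each of these fits 6 of the 9 passed at an unadjusted p under 0.05 (limma), where 67.5% to 70.2% of all probe sets did. The counts higher and lower were 0 and 0 with arrays averaged per label number, 3 and 0 with the label number as a random block (correlation 0.675), 1 and 0 against total embryo arrays of the same label series, 5 and 0 against those of the other series, 0 and 0 against the array of the same date, 2 and 1 after a further quantile normalization, 1 and 1 after cyclic loess, 0 and 8 with arrays centred on receptor genes, 0 and 0 after level adjustment, 2 and 0 with array weights and 4 and 0 at a threshold of 0.01. Against the array of the same date, 1.29% of all probe sets were called higher and 2.45% lower, and 0 of the 9 genes passed at an unadjusted p under 0.05 (limma). After cyclic loess the gene called lower was *En1* (-0.77, limma adjusted p = 0.0172). Chosen after seeing the data, level adjustment combined with averaging per label number gave 0 and 0. Level adjustment without NCP arrays 1, 2 and 3 in turn gave 0, 1 and 0 higher and 0, 0 and 1 lower. At an unadjusted p under 0.05 (limma), 0, 1, 1 and 3 of the 9 genes passed in these fits, in that order. Of all probe sets, 10.3%, 36.7%, 38.7% and 36.9% did.

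Directions turned with arrays centred on receptor genes, where the changes were -0.99 (*Six3*), -0.73 (*Emx2*), -1.52 (*Pax6*), -1.13 (*Dlx2*), -1.46 (*Otx2*), -0.59 (*En2*) and -0.79 (*Gbx2*), and the median of all probe sets moved from 0.23 to -1.46. *Emx2* also turned after cyclic loess (-0.06), level adjustment (-0.08), level adjustment per label number (-0.06) and level adjustment without NCP array 1 (-0.46). With level adjustment, *Lhx2* turned without NCP array 3 (0.14), *Dlx2* without NCP array 1 (-0.02) or 2 (-0.03) and *En2* without NCP array 2 (-0.21). Of the genes that were not called, *Pax6* also changed sign without NCP array 1 (-0.10) and *Otx2* after level adjustment (-0.02). The cause was not tested. Averaging probe sets of a gene could not differ, since each of the 9 has 1.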
